A study of Mus musculus with 8 samples.

Results

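The transcripts of 7 serpin genes of mouse liver were followed in RNA from purified mitochondria: the 5 Serpina1 paralogs Serpina1a to Serpina1e, Serpina3k and Serpinc1. All transcripts annotated to a member were summed per gene. The members were chosen from the read counts of these libraries, with their levels known, so their levels are a description, and the p-values of the age comparison are not independent evidence. They held 2113 of the 84276 counts on nuclear genes, and were 7 of the 6546 nuclear genes with a count. By total counts, Serpina1b ranked 17, Serpina1d 20, Serpina3k 23, Serpina1c 29, Serpinc1 30, Serpina1a 42 and Serpina1e 496 among these genes.

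The study asked how liver mitochondria change with age. Livers of wild-type C57BL/6N mice at 12 weeks (12 W) and 65 weeks (65 W) were homogenised, and mitochondria were enriched by centrifugation. The mitochondria were treated with nuclease and then purified on a sucrose gradient before lysis. RNA of 4 biological replicates per age was turned into PCR-amplified cDNA, and the barcoded libraries were pooled for Nanopore sequencing. A figure legend of the study calls the 12 W mice female; for the 65 W mice no sex is stated, so age and sex cannot be told apart. No untreated or whole-liver library was analysed here.

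Serpins are protease inhibitors that trap their target by a flexible loop near the carboxy terminus, the reactive centre loop, which the protease cleaves as if it were a substrate. Hepatocytes make several of them in large amounts and secrete them into the blood. The Serpina1 genes encode forms of α1-antitrypsin, which in humans is the main plasma inhibitor of neutrophil elastase. Mice carry several tandem copies of this gene, while the human genome holds a single functional one. The mouse copies differ in sequence that overlaps the reactive centre loop, and what each inhibits was not measured here. Serpina3k encodes contrapsin, an inhibitor of trypsin-like proteases, and Serpinc1 encodes antithrombin, the inhibitor of thrombin and factor Xa whose action is enhanced by heparin. These proteins enter the secretory pathway, so their mRNAs are translated at the endoplasmic reticulum and not in the mitochondrion.

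Total counts ranged from 104554 to 191092 in the 12 W libraries and from 12630 to 105252 in the 65 W libraries, where 65W-1 and 65W-3 had under 50000. Most counts lay on the 13 rows of mitochondria-encoded mRNAs. After leaving out these and 17 nuclear rows that resemble mitochondrial transcripts, 62085 nuclear counts were left at 12 W and 22191 at 65 W. Levels below are counts per 1000 of these nuclear counts in the same library. In 65W-1, which had 1527 nuclear counts, the level of a gene rests on a handful of reads. Lars2, which encodes the mitochondrial leucyl-tRNA synthetase, alone took 11.2% to 36.6% of the nuclear counts, most in 65W-1. All 10 hepatocyte markers had counts, led by albumin (Alb). In a preparation of this kind, fewer cells or organelles and less RNA in each cannot be told apart.

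The 5 Serpina1 genes lie together on the minus strand of chromosome 12 (GRCm38), between 103728156 and 103958975, a span of 231 kb. The annotated span of Serpina1b holds all of Serpina1d. Serpina1b is annotated at chr12:103728156-103830373, Serpina1d at chr12:103763594-103773592, Serpina1a at chr12:103853589-103863562, Serpina1c at chr12:103894926-103904887 and Serpina1e at chr12:103946931-103958975. Serpina3k lies on the plus strand of the same chromosome at chr12:104338486-104346144, 380 kb beyond Serpina1e. Serpinc1 lies on chromosome 1 at chr1:160978585-161005863, on the plus strand.

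The coding sequences of the main Serpina1 transcripts are all 1239 nt long and align without a gap. Between pairs of paralogs, the identity was 96.3% to 98.5%, with 19 differing positions between Serpina1a and Serpina1c and 46 between Serpina1e and either Serpina1b or Serpina1d. A read therefore has few positions that tell the paralogs apart. Over the coding sequence, 86 positions (6.94%) differed among the 5 genes. A base carried by 1 paralog while the other 4 shared another base was found at 6 positions in Serpina1a, 16 in Serpina1b, 7 in Serpina1c, 15 in Serpina1d and 17 in Serpina1e. Identity to Serpina3k was much lower, at 58.7% to 59.3% for the Serpina1 genes, and 51.5% between Serpina3k and Serpinc1. Within its own family, Serpina3k shared 91.0% with Serpina3m and 82.7% with Serpina3n.

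The differences among the paralogs were spread unevenly. Of the 394 windows of 60 nt moved along the coding sequence by 1 codon at a time, the median held 4 differing positions. The first of the windows with the most differences runs from nucleotide 1102 to 1161, codons 368 to 387 of 413, and holds 18 of the 86. A lower peak, of up to 13 positions, lies at windows centred between 885 and 900. The stretch from nucleotide 1102 to 1161 lies in exon 5, the last of each transcript, and overlaps the part that encodes the reactive centre loop. The stretch is printed for the 5 paralogs from 5′ to 3′ in the direction of the mRNA, because it is the window of this length in which the family differs most. Capitals mark the positions at which the 5 genes are not all alike. In the order printed, the stretches lie on the minus strand at chr12:103853756-103853815, chr12:103728323-103728382, chr12:103895093-103895152, chr12:103763761-103763820 and chr12:103947099-103947158 (sequences from the GENCODE transcripts on GRCm38).
Serpina1a: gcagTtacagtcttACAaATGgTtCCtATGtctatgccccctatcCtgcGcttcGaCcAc
Serpina1b: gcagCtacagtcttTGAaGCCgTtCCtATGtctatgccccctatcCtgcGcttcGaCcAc
Serpina1c: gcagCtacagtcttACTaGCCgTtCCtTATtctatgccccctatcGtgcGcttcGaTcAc
Serpina1d: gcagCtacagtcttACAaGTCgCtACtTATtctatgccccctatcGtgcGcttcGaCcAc
Serpina1e: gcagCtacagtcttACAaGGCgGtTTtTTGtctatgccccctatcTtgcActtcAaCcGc

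Serpina1c and Serpina1d were closest within this stretch, with 5 differing positions. Serpina1e differed from each of the others by 10 to 12. Of the positions at which 1 paralog differs from a base shared by the other 4, the stretch holds 3 of Serpina1a, 2 each of Serpina1b and Serpina1c, 4 of Serpina1e and 0 of Serpina1d. Serpina1b and Serpina1c, whose shares moved in opposite directions with age, differed at 8 positions here and at 42 over the coding sequence. How the counting treated reads that fit several paralogs is not given in the sources used here, so the count of each paralog is uncertain, and the sum of the family is given beside it.

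**Figure D1:**
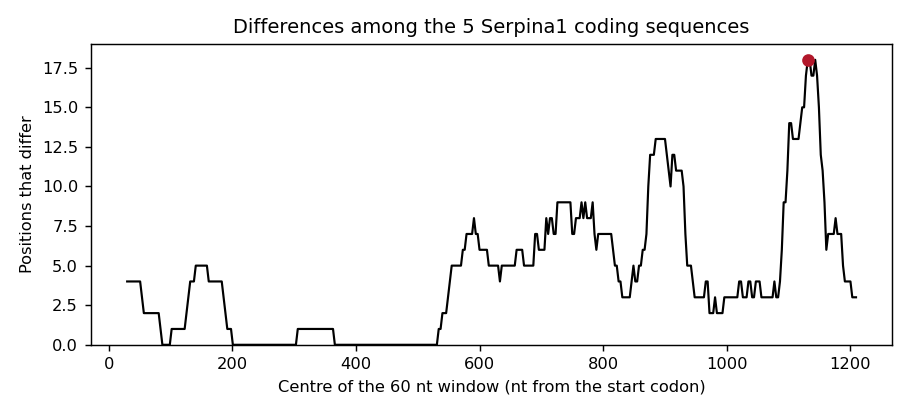
Number of positions at which the 5 Serpina1 coding sequences were not all alike, in windows of 60 nt (y axis) against the centre of the window in nt from the start codon (x axis). The peak of 18 positions near the 3′ end, marked by a red point, is the stretch that overlaps the reactive centre loop, a lower peak of 13 lies between 885 and 900, and the median window held 4.

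As a family, the Serpina1 transcripts showed no difference past the threshold. Summed over the 5 paralogs, 259, 123, 311 and 344 reads were counted in 12W-1 to 12W-4, and 21, 99, 57 and 227 in 65W-1 to 65W-4. Per 1000 nuclear counts these came to 15.8, 16.0, 18.3 and 16.4 in the younger mice, against 13.8, 16.1, 17.1 and 20.3 in the older ones. Both the lowest and the highest value were in 65 W libraries, so the ages overlapped. With Lars2 left out of the nuclear counts, a scaling added after seeing the data, they did not overlap, at 18.9 to 21.1 per 1000 for 12 W and 21.4 to 22.8 for 65 W. The mean was 16.6 ± 1.13 at the younger and 16.8 ± 2.70 at the older age (SD, n = 4 each). With the paralogs summed to a single gene in edgeR's quasi-likelihood test, the log2 fold change from 12 W to 65 W was 0.21 (95% interval -0.10 to 0.51, adjusted p = 0.476), where 6.25% of the 96 genes passed the threshold of adjusted p under 0.05.

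Within this sum the paralogs were divided differently at the 2 ages. Serpina1b, the paralog with most counts at 12 W, had 93, 45, 106 and 118 counts in 12W-1 to 12W-4, and 3, 27, 14 and 59 in 65W-1 to 65W-4. Its level was 5.66, 5.86, 6.22 and 5.64 per 1000 nuclear counts at 12 W and 1.96, 4.40, 4.21 and 5.27 at 65 W. Every 65 W library lay below every 12 W library, and 65W-1, with 3 counts, lay far below the rest (Wilson 95% interval 0.668 to 5.76, which covers counting error only). Per 1000 of all counts, per 1000 mitochondria-encoded counts, or with the rows copying mitochondrial genes kept, the ages overlapped for Serpina1b. The means were 5.84 ± 0.272 and 3.96 ± 1.41 (SD, n = 4 each). Its log2 fold change of -0.31 in edgeR, with a standard error of 0.20, did not pass the threshold (adjusted p = 0.457). It was negative in all 21 alternatives, from -0.997 without a filter to -0.17 without Lars2 and the Mup genes, and -0.18 without both shallow libraries, and passed the threshold in 0 of them.

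Serpina1c had 48, 23, 74 and 63 counts at 12 W and 8, 31, 19 and 62 at 65 W. Its level was 2.92, 2.99, 4.35 and 3.01 per 1000 nuclear counts in the younger mice, in the order of the replicates, against 5.24, 5.05, 5.72 and 5.54 in the older mice. Each 65 W library exceeded all those of 12 W, of which 12W-3 was the highest. As for Serpina1b, the ages overlapped per 1000 of all counts, per 1000 mitochondria-encoded counts and with the rows copying mitochondrial genes kept. The means were 3.32 ± 0.687 and 5.38 ± 0.299 (SD, n = 4 each). Serpina1c rose with a log2 fold change of 0.84 (95% interval 0.38 to 1.31, standard error 0.21, adjusted p = 0.0268 in edgeR). The call was lost in 12 of 21 alternatives, among them those without 12W-1, 12W-4, 65W-1, 65W-2 or 65W-3 (log2 fold change 0.78 to 0.84, adjusted p 0.0599 to 0.0960 in edgeR), while the direction was higher at 65 W in all 21. Without the shallow libraries 65W-1 and 65W-3, the log2 fold change was 0.77 (adjusted p = 0.147 in edgeR).

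Serpina1a and Serpina1d did not differ beyond the spread of the libraries. Serpina1a had 46, 22, 42 and 73 counts at 12 W and 3, 17, 12 and 32 at 65 W, or 2.90 ± 0.426 and 2.80 ± 0.673 per 1000 nuclear counts (SD, n = 4 each). Its log2 fold change was 0.13 (adjusted p = 0.939 in edgeR), for which no stable interval could be derived, and 0.09 with a standard error of 0.20 with limma-voom. Serpina1d had 72, 33, 89 and 90 counts at 12 W and 7, 22, 8 and 63 at 65 W, or 4.55 ± 0.453 and 4.05 ± 1.38 per 1000. Its log2 fold change was -0.01 (95% interval -0.51 to 0.49, adjusted p = 0.981 in edgeR). This interval is wide enough to hold a change of the size seen for Serpina1b, but an interval derived so near 0 is itself unstable. With limma-voom the log2 fold change of Serpina1d was -0.02 with a standard error of 0.20.

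**Figure D2:**
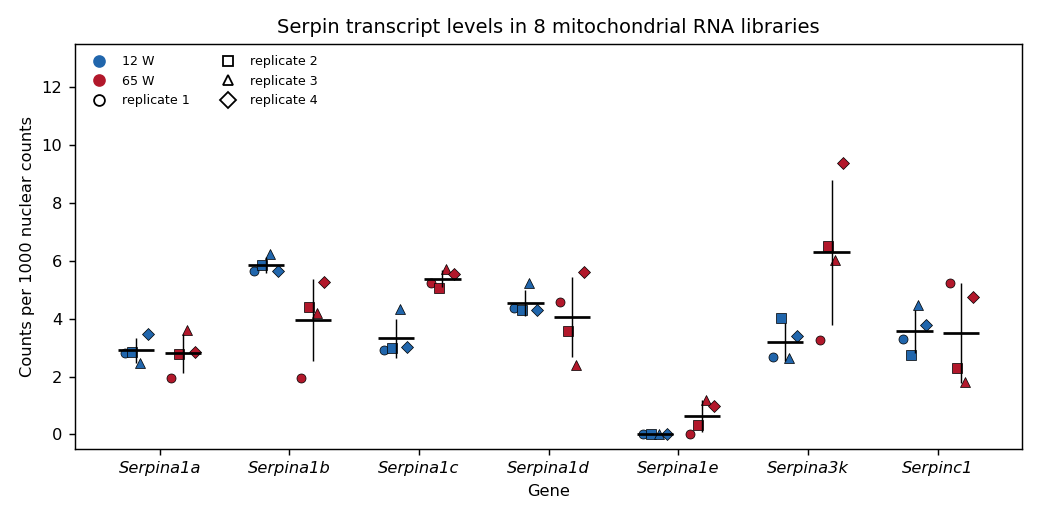
Counts per 1000 nuclear counts (y axis) of the 7 serpin genes (x axis) in each library, with 12 W in blue and 65 W in red, the symbol giving the replicate number, horizontal bars the means and vertical bars ± 1 SD (n = 4). The 65 W points of Serpina1b lie below and those of Serpina1c above the 12 W points, Serpina1e is at 0 in all 12 W libraries, and the 65 W points of Serpina3k spread from 3.27 to 9.38.

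The share of each paralog among the Serpina1 counts of a library needs no library size. At 12 W, Serpina1b made up 35.9%, 36.6%, 34.1% and 34.3% of the Serpina1 counts. At 65 W it made up 14.3%, 27.3%, 24.6% and 26.0%. Its mean share was 35.2% ± 1.22 at 12 W and 23.0% ± 5.93 at 65 W (SD, n = 4 each), with no overlap (two-sided exact permutation p = 0.0286; 4 against 4 libraries allow no smaller value). Serpina1c went the other way, from 18.5%, 18.7%, 23.8% and 18.3% at 12 W to 38.1%, 31.3%, 33.3% and 27.3% at 65 W. Its mean share was 19.8% ± 2.64 and 32.5% ± 4.48, again with no overlap (exact permutation test, p = 0.0286). The p-values are not adjusted for the 5 shares compared, which are not independent, since the shares of a library add up to a whole.

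In every 12 W library Serpina1b had more counts than Serpina1c, with a ratio of 1.43 to 1.96 (mean 1.80 ± 0.248, SD, n = 4). In every 65 W library it had fewer, with a ratio of 0.375 to 0.952 (mean 0.734 ± 0.255, SD, n = 4). The shares of Serpina1a (17.6% ± 3.16 and 16.7% ± 3.25, exact permutation p = 0.686) and Serpina1d (27.4% ± 1.08 and 24.3% ± 8.23, exact permutation p = 0.629) overlapped between the ages. Only the annotated paralogs' own rows were counted here, and whether the sorting of reads between near-identical rows moved with age was not tested.

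**Figure D3:**
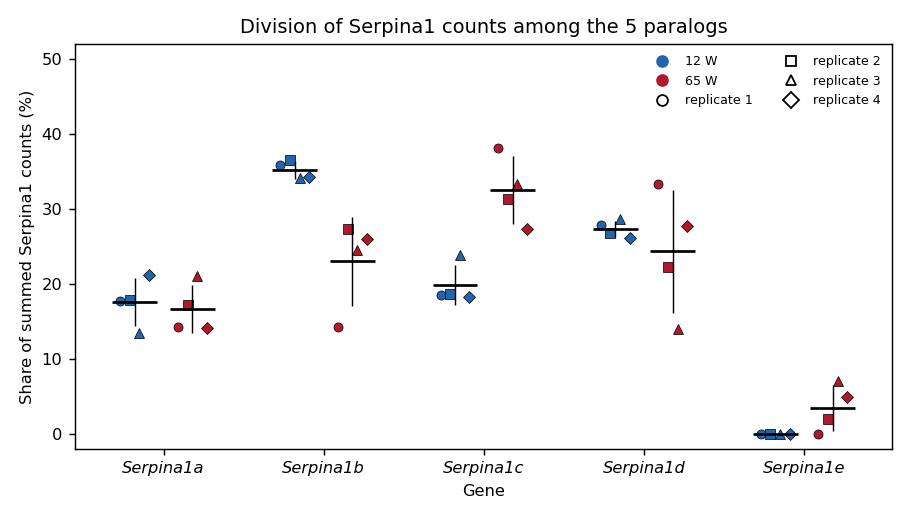
Share of the summed Serpina1 counts of a library, in percent (y axis), taken by each of the 5 paralogs (x axis), with 12 W in blue, 65 W in red, symbols for the replicate number, horizontal bars for means and vertical bars for ± 1 SD (n = 4). Serpina1b stood at 34.1% to 36.6% in the 12 W libraries and Serpina1c at 18.3% to 23.8%, while at 65 W Serpina1c lay above Serpina1b in every library.

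Serpina1e was the least counted paralog and was seen at 65 W only. It had 0 counts in each of the 12 W libraries, and 0, 2, 4 and 11 counts in 65W-1 to 65W-4. At 12 W, 0 of 1037 Serpina1 counts lay on Serpina1e, which allows a share of up to 0.289% (3 counts). At 65 W, 17 of 404 did, or 4.21% (Wilson 95% interval 2.64% to 6.63%). Per nuclear count, the level pooled over the 65 W libraries was 15.9 times the limit of 3 counts set over the whole 12 W group. This ratio leaves out the counting error of the 17 reads and the spread between libraries. Without 65W-4, which held most of these counts, the pooled level was 11.3 times that limit, on 6 counts. The 0 in 65W-1 stands against 21 Serpina1 counts, too few to show a share of this size. The share did not pass the exact permutation test over libraries (p = 0.143), since 65W-1 ties with the 12 W libraries at 0; without 65W-1 it was p = 0.0286. All 17 counts were on the transcript Serpina1e-202, of 1575 nt.

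Serpina1e was too low for the filter on low counts, so 6 of the 7 members were tested in the main comparison.

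Serpina3k showed the largest change of the 6 members tested. Its counts were 44, 31, 45 and 71 in 12W-1 to 12W-4, and 5, 40, 20 and 105 in 65W-1 to 65W-4. This gave levels of 2.68, 4.03, 2.64 and 3.39 per 1000 nuclear counts in the younger mice, against 3.27, 6.51, 6.02 and 9.38 in the older ones. Of the 65 W libraries, 3 lay above all 12 W libraries, while 65W-1, with 5 counts (Wilson 95% interval 1.40 to 7.64), lay among them. The means were 3.19 ± 0.662 and 6.30 ± 2.50 (SD, n = 4 each). After TMM scaling, the log2 CPM was 11.44, 12.00, 11.35 and 11.65 for the younger mice, against 12.00, 12.86, 12.72 and 13.05 for the older ones, and 65W-1 and 12W-2 all but touched. It rose by a log2 fold change of 1.24 (95% interval 0.73 to 1.75, standard error 0.24, adjusted p = 0.00461 in edgeR), or 2.36-fold.

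The rise of Serpina3k stayed above 0 in all 22 alternatives and lost its call in 4. Leaving out 65W-4, the library with the highest level, gave a log2 fold change of 1.04 (adjusted p = 0.0539 in edgeR). Leaving out both shallow libraries gave 1.43 (adjusted p = 0.00360 in edgeR). When Lars2 and the Mup genes were left out of the nuclear counts it was 1.39 (adjusted p = 0.000530 in edgeR). All counts of Serpina3k were on a single transcript, Serpina3k-201, of 2057 nt. Its closest relative with counts, Serpina3m, had 44 counts at 12 W and 9 at 65 W, against 191 and 170 for Serpina3k.

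Set against Serpina3k within the same library, the Serpina1 family was lower on average at 65 W. The ratio of summed Serpina1 counts to Serpina3k counts was 5.89, 3.97, 6.91 and 4.85 in 12W-1 to 12W-4, against 4.20, 2.48, 2.85 and 2.16 in 65W-1 to 65W-4. The values of 12W-2 and 65W-1 crossed, and the other libraries of each age lay apart. The mean ratio was 5.40 ± 1.28 at 12 W and 2.92 ± 0.897 at 65 W (SD, n = 4 each). On the log2 scale with a pseudocount of 0.5 the difference was -0.92 (two-sided exact permutation test over 70 assignments, p = 0.0286). This p rests on the pseudocount, since without it the difference was -0.90 with an exact permutation p = 0.0571. Leaving out any library except 65W-1 also gave p = 0.0571 in the exact permutation test, with differences from -1.06 to -0.80. The single paralogs were not alike in this ratio. Serpina1b had 1.90 ± 0.413 counts per Serpina3k count at 12 W and 0.634 ± 0.0643 at 65 W. Serpina1a had 0.929 ± 0.154 and 0.482 ± 0.144. Both were without overlap, as a description with no test. Serpina1c had 1.09 ± 0.396 and 0.979 ± 0.439 (SD, n = 4 each), with overlapping libraries. Because Serpina3k itself was higher at 65 W, this ratio can fall for a gene whose own level is steady. The mean level of Serpina1a was 2.90 per 1000 nuclear counts at 12 W and 2.80 at 65 W. How many other genes lie apart in their ratio to Serpina3k was not tested, so the gap is not shown to be particular to Serpina1a and Serpina1b.

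**Figure D4:**
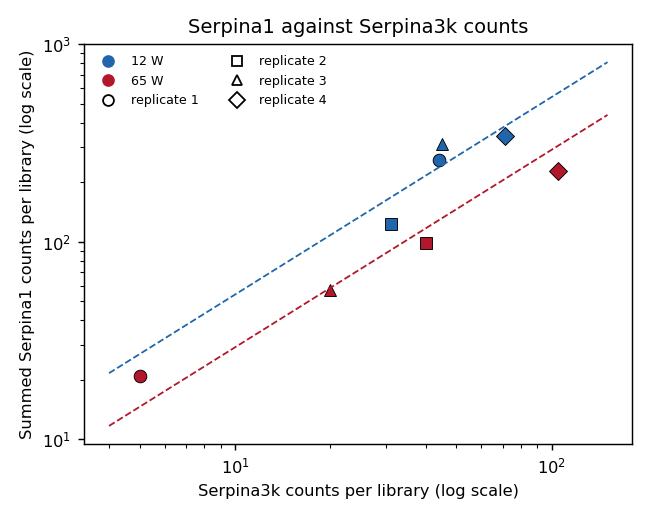
Summed Serpina1 counts (y axis, log scale) against Serpina3k counts (x axis, log scale) in each library, with 12 W in blue, 65 W in red and symbols for the replicate number. The dashed lines give the mean ratio of each age, 5.40 at 12 W and 2.92 at 65 W, and 65W-1, with 5 Serpina3k counts, lies nearest to the 12 W line among the 65 W libraries.

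Serpinc1 did not change detectably. It had 54, 21, 76 and 79 counts at 12 W and 8, 14, 6 and 53 at 65 W, or 3.29, 2.73, 4.46 and 3.77 per 1000 nuclear counts against 5.24, 2.28, 1.81 and 4.73. The 65 W libraries lay on both sides of the 12 W libraries, with 65W-1 and 65W-4 above and 65W-2 and 65W-3 below. The means were 3.56 ± 0.735 and 3.51 ± 1.72 (SD, n = 4 each), and the log2 fold change was 0.05 (95% interval -0.61 to 0.72, adjusted p = 0.961 in edgeR).

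Per kb of the longest counted transcript, the order of the members at 12 W was Serpina1b (3.32 counts per 1000 nuclear counts and kb), Serpina1d (3.26), Serpina1c (2.44), Serpina1a (1.84), Serpina3k (1.55), Serpinc1 (0.717) and Serpina1e (0). The ranges of neighbours overlapped except between Serpina3k and Serpinc1 and between Serpinc1 and Serpina1e. At 65 W the order was Serpina1c (3.96), Serpina3k (3.06), Serpina1d (2.91), Serpina1b (2.25), Serpina1a (1.77), Serpinc1 (0.707) and Serpina1e (0.399). There, only Serpina1a and Serpinc1 were neighbours whose ranges did not overlap. The order depends on the length used. The cDNA was primed with poly dT and sequenced as long reads, so counts need not grow with transcript length. By counts with no division by length, Serpina1b (5.84 per 1000 nuclear counts), Serpina1d (4.55) and Serpinc1 (3.56) led at 12 W. Serpina1b was divided by 1762 nt, the length of a transcript with 3 of its 465 counts, and Serpinc1 by 4970 nt. Per kb of coding sequence, Serpina3k ranked first at 65 W (5.02, against 4.35 for Serpina1c), as it did by counts with no division by length (6.30, against 5.38). On that coding scale Serpina1a ranked 6 at 12 W in place of 4, and Serpinc1 ranked 4 at 12 W and 5 at 65 W in place of 6.

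Among all 99 nuclear genes that passed the filter, 9 (9.09%) differed between the ages, 7 higher at 65 W (7.07%) and 2 lower (2.02%). Of the 6 serpins tested, 2 were higher and 0 lower. The log2 CPM of the age groups did not overlap for 14.1% of the genes tested, and for 3 of the 6 serpins, Serpina3k, Serpina1c and Serpina1b. The median log2 fold change was 0.09 over the 6 serpins and -0.05 over all genes. By adjusted p, the other genes higher at 65 W were led by Mup18 (1.59, adjusted p = 0.000713), Mup3 (1.69, adjusted p = 0.00133) and Mup11 (1.46, adjusted p = 0.0133), members of the major urinary protein family, by edgeR. The genes that were lower were A1bg (-2.46, adjusted p = 0.000713), a plasma glycoprotein, and Cyp3a41a (-2.45, adjusted p = 0.00550), a cytochrome P450, also by edgeR.

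**Figure D5:**
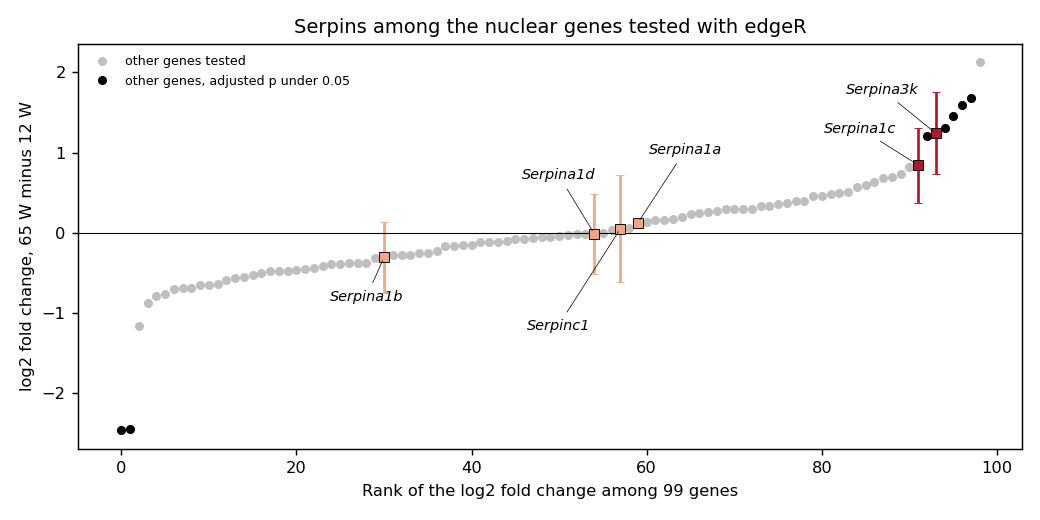
Log2 fold change from 12 W to 65 W (y axis) of the 99 nuclear genes tested with edgeR, ordered by size (x axis, rank). Squares mark the 6 serpins, with 95% intervals except for Serpina1a, dark red where the adjusted p was under 0.05, and black points mark the other genes called; Serpina3k (1.24) and Serpina1c (0.84) lie near the upper end and the other 4 serpins between -0.31 and 0.13.

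Of the gene lists for sex differences in mouse liver, the female-biased one lay apart between the ages in its summed level and the male-biased one overlapped. The former has 19 genes, 17 of them with counts, and had 679 counts at 12 W and 56 at 65 W. Per 1000 nuclear counts it summed to 9.57 to 13.3 at 12 W and 1.14 to 3.66 at 65 W, with no overlap. Both members tested, A1bg and Cyp3a41a, were lower at 65 W. A member too low to test, Sult3a1, went the other way, with 1 count at 12 W and 6 at 65 W. Of the 23 genes on a male-biased list, 14 had counts and 6, all Mup genes, were tested. Mup18, Mup3 and Mup11 were higher at 65 W, while Mup19, the gene with most counts, stood at 0.14 on the log2 scale (adjusted p = 0.859 in edgeR). The 9 genes without counts included Ddx3y, Eif2s3y, Kdm5d and Uty, and Xist on the female-biased list had none either. Cyp2d9, Cyp7b1, Elovl3 and Slco1a1 had 1 or 2 counts each. Summed, that list stood at 19.97 to 42.1 per 1000 at 12 W and 26.9 to 51.1 at 65 W. The part of this shift in the values of Serpina3k and the Serpina1 paralogs was not tested.

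The pattern of Serpina3k over the 8 libraries was most like those of Mup3 (Pearson r = 0.93 of log2 CPM), Mup11 (0.87), Mup10 (0.81), Mup18 (0.78) and Serpina1c (0.66), out of 98 other genes. After subtraction of the mean of each age group, the same values were 0.71, 0.53, 0.49, -0.13 and -0.59. For Mup18 and Serpina1c the likeness was not present within the age groups. The summed Serpina1 counts were most like Serpina3k (0.85), Mup3 (0.77), Mup11 (0.65), Timm22 (0.64), a subunit of the inner membrane translocase, and Mup19 (0.62). Within the age groups these were 0.77, 0.63, 0.34, 0.82 and 0.78. The libraries share their depth, their scaling and the age split in every one of these values, which are given as a description.

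Other serpins were too low to test. Of 32 listed, 15 had counts, 348 in all, and 0 passed the filter, so the 7 members held 85.9% of all 2461 serpin counts. Serpinf2 (α2-antiplasmin, the plasmin inhibitor) had 47 counts at 12 W and 21 at 65 W, and Serping1 (the C1 esterase inhibitor) had 39 and 17. Serpina3m had 44 and 9, Serpind1 (heparin cofactor II) 38 and 11, and Serpinf1 (pigment epithelium-derived factor) 34 and 9. Scaled to the nuclear counts, the 12 W counts correspond to 16.8, 13.9, 15.7, 13.6 and 12.2 counts at 65 W. The 15 genes together stood at 4.27 per 1000 nuclear counts at 12 W and 3.74 at 65 W.

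The proteases and inhibitors among which serpins act in plasma showed no call. Of a list of 36 coagulation factors, plasma proteases and other inhibitors, 31 had counts and 7 were tested, with 0 higher, 0 lower and a median log2 fold change of 0.04. Prothrombin (F2), the zymogen of the protease that antithrombin inhibits, had 180 counts at 12 W and 59 at 65 W, with a log2 fold change of 0.04 (adjusted p = 0.963 in edgeR). Fetuin-A (Ahsg) had 0.24 (adjusted p = 0.674 in edgeR), kininogen (Kng1) 0.18 (adjusted p = 0.859 in edgeR) and protein C (Proc) 0.30 (adjusted p = 0.805 in edgeR). The others tested were below 0, with plasminogen (Plg) at -0.76 (adjusted p = 0.253 in edgeR), Pzp at -0.28 (adjusted p = 0.757 in edgeR) and Ambp at -0.22 (adjusted p = 0.808 in edgeR). Of 46 other abundant secreted hepatocyte proteins, 29 were tested, 0 were higher and only A1bg was lower, with a median log2 fold change of -0.25. Apolipoprotein E (Apoe) stood at -0.37 on the log2 scale (adjusted p = 0.391 in edgeR) and albumin -0.12 (adjusted p = 0.837 in edgeR). Of 20 acute phase genes, 8 were tested and 0 were called; fibrinogen β (Fgb) had -0.17 (adjusted p = 0.805 in edgeR) and hemopexin (Hpx) -0.06 (adjusted p = 0.963 in edgeR).

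The hepatocyte markers summed to 149 to 194 per 1000 nuclear counts at 12 W and 116 to 166 at 65 W; 8 of the 10 were tested and 0 were called. Markers of other cell types were scarce and none passed the filter. At 12 W and 65 W, 96 and 36 counts lay on the 8 Kupffer cell markers, 27 and 17 on the 7 stellate cell markers and 16 and 5 on the 6 endothelial markers. Red blood cell markers had 61 and 8, B cell markers 39 and 6, pancreas markers 32 and 13, and cholangiocyte markers 3 and 1. Of the B cell marker counts, 30 at 12 W and 6 at 65 W lay on Cd74. All 4 adipocyte markers were at 0. Each of these sums overlapped between the ages per 1000 nuclear counts, and their part in the serpin levels was not tested.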

How the data were processed

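The authors deposited a table of raw counts, in which each row is an Ensembl transcript and each column a Nanopore cDNA library; it was made with the Differential Gene Expression workflow of Epi2Me Labs. The submitters' processing notes name minimap2, SAMtools, edgeR, GRCm38 and mm10; the versions, the counting settings and the annotation release are not given in the sources used here. By identifier, 8591 of 8688 rows had an entry in the GENCODE annotation of GRCm38, and the 97 others, with 0.0946% of the counts, were kept as genes of their own. Counts were summed per gene. The mitochondria-encoded rows and 17 nuclear rows resembling mitochondrial transcripts (blastn 2.17.0, identity at least 80% over at least 100 nt) were left out.

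Libraries were grouped by the age in their labels. The age groups were compared with edgeR 4.0.16 (R 4.3.3; quasi-likelihood test, TMM over the genes kept by filterByExpr, library size the remaining nuclear counts, Benjamini-Hochberg over all genes tested, threshold 0.05). Standard errors and intervals were derived from the test's p-value and degrees of freedom, which is unstable near a fold change of 0; none is given for Serpina1a. For ratios and shares, a two-sided exact permutation test ran over 70 assignments. Alternatives were DESeq2 1.42.0, limma 3.58.1 (voom), other scalings, library sizes and filters, transcripts tested singly, and leaving out libraries. Removing Lars2 and the Mup genes from the reference, dropping the pseudocount of 0.5, ranking per kb of coding sequence and refitting the summed Serpina1 counts were added after seeing the data. The members and gene lists were chosen with earlier results of these data known. The genes named were all members, the 5 other serpins with most counts, the 5 most similar patterns, 2 to 4 genes per list, and up to 5 genes called per direction. For the sex-biased lists, further genes with few or no counts were named, and for the list of coagulation factors, proteases and inhibitors all 7 genes tested. Coding sequences were aligned with Biopython 1.88, and log2 CPM used a prior count of 2. Wilson 95% intervals and the limit of 3 counts cover counting error only, since PCR-amplified reads without molecular identifiers are not independent molecules. Replicate numbers were not used to pair the libraries, except in the alternative with a replicate block.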

Additional observations from a re-analysis of the deposited data

Results flagged for a closer look

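In library 12W-3, the Serpina1c level of 4.35 counts per 1000 nuclear counts lay above the other 12 W libraries. So did the Serpina1d level of 5.23 and the Serpina1c share of Serpina1 counts, 23.8%. In each case the gap to the nearest library filled over 90% of the range of the 4 libraries, past Dixon's 95% limit. Of 26 groups of 4 values examined, 3 passed it. Chance passes about 1 in 20 independent groups, but these groups share counts, and the 3 come from the same library. In 12W-3, the Wilson 95% interval of the Serpina1d level was 4.25 to 6.43, which holds the levels of the other 12 W libraries (4.29 to 4.38). That of Serpina1c, 3.46 to 5.45, does not hold the other levels (2.92 to 3.01). These intervals cover counting error only. The log2 fold change of Serpina1c without 12W-3 was 1.00 (adjusted p = 0.00884 in edgeR).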

How the results depend on the processing

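Serpina3k was higher at 65 W in all 22 alternatives and Serpina1c in all 21. Serpina3k lost its call with all counts as library size (1.16 on the log2 scale), with mitochondria-encoded counts as library size (1.10) and without a filter (0.56); over left-out libraries it ranged from 1.04 to 1.44, and 65W-4 ended the call. Serpina1c lost its call without a scaling factor (0.69), with all counts (0.79) or mitochondria-encoded counts (0.76) as library size, with DESeq2 (0.80), without a filter (0.11), without both shallow libraries (0.77) and with the replicate block (0.88); over left-out libraries it ranged from 0.78 to 1.00, and 12W-1, 12W-4, 65W-1, 65W-2 and 65W-3 each ended the call (adjusted p up to 0.0960 in edgeR). No scaling factor moved the median of all genes to -0.18 and no filter to -1.31, against -0.05. The causes were not tested.

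Near 0, signs changed. Serpina1a reversed without a scaling factor (-0.018) and without a filter (-0.59), and over left-out libraries ranged from -0.023 to 0.24. Serpina1d reversed with transcripts tested singly (0.018), with rows copying mitochondrial genes (0.0057), without both shallow libraries (0.11), without Lars2 (0.084) and without Lars2 and the Mup genes (0.12), and over left-out libraries ranged from -0.20 to 0.12. Serpinc1 reversed without a scaling factor (-0.067), with mitochondria-encoded counts (-0.051), with limma-voom (-0.034) and without a filter (-0.61), and over left-out libraries ranged from -0.16 to 0.21. The summed Serpina1 counts stayed short of the threshold in all 16 alternatives (0.042 to 0.24). Serpinc1 ranked 3 by counts at 12 W.

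The log2 ratio of Serpina1 to Serpina3k kept its sign in all 13 alternatives. Its exact permutation p rose above 0.05 with the most counted transcripts only (-0.91) and without a pseudocount (-0.90). Over left-out libraries the ratio ranged from -1.09 to -0.80, with exact permutation p up to 0.0571. The p was also above 0.05 without both shallow libraries (-1.19, where 0.0667 is the smallest p) and with the replicate block (-0.92, where 0.125 is the smallest p). The differences in share, in percentage points, could not pass the test for the same reason without both shallow libraries (-8.59 for Serpina1b, 9.48 for Serpina1c) or with the replicate block (-12.2 and 12.7). Over left-out libraries they ranged from -13.6 to -9.28 for Serpina1b, 10.8 to 14.4 for Serpina1c, -2.41 to 0.268 for Serpina1a, -6.02 to 0.417 for Serpina1d and 2.29 to 4.63 for Serpina1e, which passed only without 65W-1 (4.63, exact permutation p = 0.0286).

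The count of nuclear genes called, 9, was 4 with all counts or mitochondria-encoded counts as library size, 5 without a filter, 2 with at least 10 counts in every library (9 genes tested), 4 without Lars2 and the Mup genes, and 5 to 10 over left-out libraries. Deviations of same-numbered libraries from the mean of their age had correlations of -0.13, -0.30, -0.42 and 0.22. At this depth these values cannot show whether the numbers pair the libraries. The replicate block gave 8 calls. Depth limits the values of 65W-1 and 65W-3, with 1527 and 3324 nuclear counts.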
